A study of Mus musculus with 30 samples.

Results

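The EGR, NR4A and NAB genes encode nuclear regulators that cells switch on within minutes to hours of a stimulus, together with the corepressors that restrain them. They are described here across a time course of cycloheximide in 2 mouse cell lines. Members were chosen by name, with the CPM (each gene's counts scaled to a library of 1 M counts) of all 30 libraries already known, as the identifiers that map to Egr1, Egr2, Egr3, Nab1, Nab2, Nr4a1, Nr4a2 and Nr4a3. All 8 were found among 57186 identifiers in the count table. Because their values in every comparison were known when they were chosen, their levels and changes are a description and carry no p-value.

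NIH/3T3 is a fibroblast line, grown in DMEM with serum. CGR8 comes from mouse embryonic stem cells and was kept in N2B27 medium with 2i and LIF, where 2i stands for a pair of inhibitors of the kinases MEK and GSK3. Line and medium differ together, so their parts in any difference between the lines cannot be told apart. Both lines carried the knock-in labelled ROSA26 SLT, the 0 h controls included, and whether either line was a single clone was not given. Cycloheximide, which stops ribosomes during elongation and so blocks the making of new protein, was used at 0.1 µg/mL for 0, 1, 2, 5 or 48 h, with 3 libraries (A, B and C) per line and time. The RNA counts used here do not show how far this dose reduced the making of protein. The design compared each later time with 0 h within each line.

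Early growth response genes Egr1, Egr2 and Egr3 encode zinc-finger transcription factors that are transcribed without need for new protein when serum, growth factors or stress activate ERK signalling. NAB1 and NAB2 are corepressors that bind EGR proteins, and EGR proteins are known to activate Nab2, which closes a negative feedback loop. Nr4a1 (Nur77), Nr4a2 (Nurr1) and Nr4a3 (Nor1) encode orphan nuclear receptors that are also immediate-early genes, driven in many cells by CREB and MEF2. Blocking translation is a classical way to raise and prolong immediate-early transcripts, an effect called superinduction.

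The stretches of DNA just upstream of 4 members are shown because these genes took different courses below. RefSeq promoter windows on GRCm38.p6 were matched for 6 of the 8 members, namely Egr2, Nab1, Nab2, Nr4a1, Nr4a2 and Nr4a3. Each line gives the 250 bases before an annotated start, 5′ to 3′ on the gene's strand. Capitals mark every match, on either strand, to the CArG box (the site of SRF), the CRE core TGACG, or the EGR sites GCGTGGGCG and GCGGGGGCG.
Egr2 (chr10:67537619-67537868, plus strand): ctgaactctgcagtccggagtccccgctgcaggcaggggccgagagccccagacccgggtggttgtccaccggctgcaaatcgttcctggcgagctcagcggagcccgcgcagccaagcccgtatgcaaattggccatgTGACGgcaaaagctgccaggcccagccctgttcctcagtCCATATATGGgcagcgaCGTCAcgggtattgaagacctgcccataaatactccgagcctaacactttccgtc
Nr4a1 (chr15:101266596-101266845, plus strand): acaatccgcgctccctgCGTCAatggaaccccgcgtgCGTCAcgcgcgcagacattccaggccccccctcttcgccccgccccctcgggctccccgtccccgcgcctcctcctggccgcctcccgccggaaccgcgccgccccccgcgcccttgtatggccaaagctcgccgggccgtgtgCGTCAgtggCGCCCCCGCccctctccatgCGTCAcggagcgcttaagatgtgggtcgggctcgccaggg
Nr4a3 (chr4:48045055-48045304, plus strand): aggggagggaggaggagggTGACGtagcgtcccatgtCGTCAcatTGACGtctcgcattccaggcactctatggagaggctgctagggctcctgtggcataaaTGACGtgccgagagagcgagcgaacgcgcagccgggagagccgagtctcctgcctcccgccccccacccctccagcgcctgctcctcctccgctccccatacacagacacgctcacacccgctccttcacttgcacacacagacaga
Nab1 (chr1:52500449-52500698, minus strand): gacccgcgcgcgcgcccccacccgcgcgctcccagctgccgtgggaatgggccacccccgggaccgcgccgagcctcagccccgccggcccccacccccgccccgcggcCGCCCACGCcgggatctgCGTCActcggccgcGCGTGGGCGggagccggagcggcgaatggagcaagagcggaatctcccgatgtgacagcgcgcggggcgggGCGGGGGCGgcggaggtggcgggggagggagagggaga

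In the Egr2 stretch a CArG box lay from -72 to -63, counting back from -1 at the base before the start, between CRE cores on opposite strands. Of the 5 RefSeq windows of Egr2, 4 held a CArG box, and 3 of these windows overlap and share a single box. Over 32851 mouse promoter windows of 300 bases (250 before to 50 after the start), 1.63% held a CArG box. Nr4a1, Nr4a2 and Nr4a3 held 4 CRE cores each in their windows, the Egr2 window shown held 2 and Nab1 held 1. At least 1 core was in 20.8% of all windows, and the share with 4 was not counted. The full CRE, TGACGTCA, was in 1.79% of all windows and in none of the members' windows. The NR4A site NBRE, AAAGGTCA, was in 1.51% of all windows and likewise in none of theirs.

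Nab1 held the EGR site GCGTGGGCG at 2 places and GCGGGGGCG at 1, where 0.612% and 2.91% of all windows held these letters. Nr4a1 held 1 copy of GCGGGGGCG, from -60 to -52. Nab2 held no match to any motif searched. The letters of the TATA box, TATAAA, were found in Nr4a2 alone among the matched members and in 13.6% of all windows. In Nr4a2 they lay on the strand opposite the gene, from -164 to -159. CRE core matches include those inside a full CRE. These are matches of letters in a window and show neither binding nor its absence.

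Depth and the identity of the lines were checked once for all results. Totals ranged from 18.2 to 30.5 M counts per library. A count of 0 allows up to 3 counts, which is 0.0986 to 0.164 CPM in NIH/3T3 and 0.0964 to 0.147 CPM in CGR8, for counting error only. The fibroblast genes Col1a1, Col1a2, Col3a1 and Lox lay at or above 218 CPM in every NIH/3T3 library and at or below 0.727 CPM in CGR8, and 6 stem cell markers lay at or above 375 CPM in CGR8 and at or below 0.383 CPM in NIH/3T3. Of 6 markers of differentiated cells, the highest in CGR8 reached 6.02 CPM. Some libraries stood apart from their replicates: the sample quality weights from voom were 0.0769 for NIH/3T3 1 h C, 0.13 for NIH/3T3 2 h A, 0.27 for CGR8 2 h A, 0.334 for CGR8 0 h B and 0.347 for CGR8 5 h A. Of the members' changes against 0 h described below, leaving out any one of these libraries altered a single call, that of Nr4a1 in NIH/3T3 at 1 h. CPM is a share of a library, and in these bulk samples fewer cells with a transcript and less of it per cell cannot be told apart.

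Before treatment, most of the family was higher in the fibroblasts. Per kilobase of transcript, the only scale on which genes are compared with each other, the untreated NIH/3T3 cells held most Egr1, at 26.1 ± 1.82 CPM per kb (SD, n = 3), then Nab1 at 20.8 ± 2.12. Nab2 followed at 12.0 ± 0.942 and Nr4a1 at 10.6 ± 0.85, and of these neighbours in the order the libraries of Nab2 and Nr4a1 overlapped. Egr2 stood at 4.60 ± 0.211, Egr3 at 1.44 ± 0.32, Nr4a2 at 0.401 ± 0.0953 and Nr4a3 at 0.112 ± 0.0461 CPM per kb, each below the range of the gene before it.

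Untreated CGR8 cells held Nr4a1 above all other members, at 12.9 ± 1.07 CPM per kb. Nab2 came next at 2.29 ± 0.215, then Nab1 at 1.14 ± 0.107 and Egr1 at 0.249 ± 0.0229 CPM per kb, with no overlap between these neighbours. Nr4a2 stood at 0.181 ± 0.0206, below the range of Egr1. Egr2, Egr3 and Nr4a3 had at most 3 counts in any untreated CGR8 library, so their order is not resolved.

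Between the untreated lines, 7 of the 8 members were called lower in CGR8 and 0 higher, where a call is an adjusted p under 0.05 by edgeR's quasi-likelihood test over 17549 genes. Over all genes 36.3% were called lower and 42.8% higher. Egr2, Egr3 and Nr4a3 passed the filter on low counts in the fit of both lines only through NIH/3T3, so their calls could hardly be other than lower. Nothing is read from the members' count, since the members were chosen with these levels known. The log2 difference, CGR8 minus NIH/3T3, was -6.75 ± 0.22 (SE) for Egr1, -4.23 ± 0.13 for Nab1, -2.43 ± 0.15 for Nab2 and -1.19 ± 0.26 for Nr4a2. Nr4a1 was the exception, with a difference of 0.24 ± 0.18 that was not called, although it was called at 0.28 when the untreated groups were fitted alone and at 0.25 with voom.

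**Figure D1:**
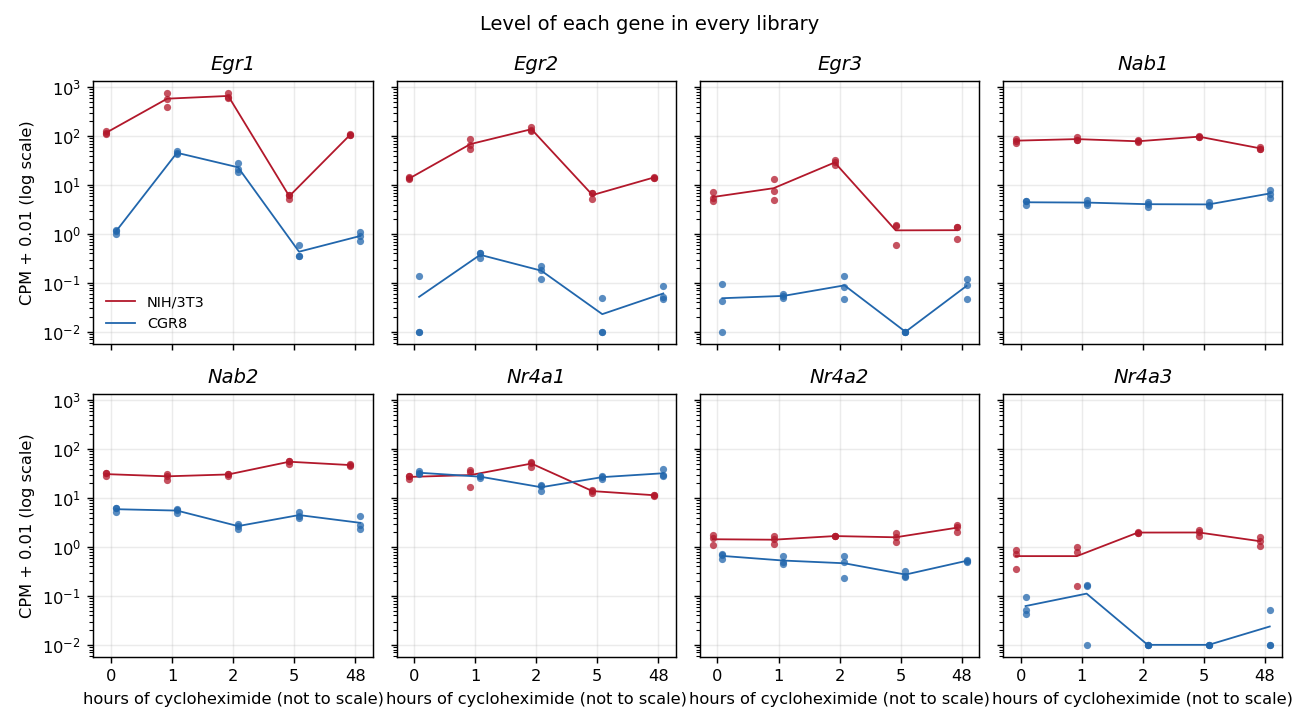
CPM plus 0.01, on a log axis, of each gene in every library against hours of cycloheximide, spaced evenly and not to scale; points are libraries, lines join group means, and libraries with no count sit at 0.01. Egr1 peaks at 1 to 2 h and is lowest at 5 h in both lines, while Nr4a1 is highest at 2 h in NIH/3T3 and lowest at 2 h in CGR8.

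Egr1 showed the largest swing of the family in both lines. In NIH/3T3 the libraries A, B and C held 125, 108 and 118 CPM at 0 h, 587, 762 and 399 at 1 h, and 750, 636 and 601 at 2 h. At 5 h they held 6.22, 5.15 and 6.37 CPM, and at 48 h 109, 105 and 108. Every library at 1 h and 2 h lay above every untreated one, every library at 5 h lay far below, and the 48 h libraries overlapped the untreated ones. Against 0 h, Egr1 rose by 2.31 ± 0.17 (log2 ± SE) at 1 h and by 2.50 ± 0.17 at 2 h, which is 4.97-fold and 5.66-fold. At 5 h it stood at -4.31 ± 0.20, 19.8-fold below 0 h, and at 48 h at -0.13 ± 0.16, which was not called. Between 2 h and 5 h alone the change was -6.81 ± 0.21, or 112-fold. Without library C the value at 1 h was 2.51, and without library A the value at 2 h was 2.42.

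In CGR8, Egr1 started from 25 to 35 counts per library and rose by a larger factor. Libraries A, B and C held 1.12, 1.01 and 1.21 CPM at 0 h, 49.3, 44.8 and 42.7 at 1 h, and 28.9, 21.4 and 18.9 at 2 h. By 5 h these held 0.577, 0.344 and 0.35 CPM, and at 48 h 0.917, 0.709 and 1.07. The 1 h libraries were all above the 2 h libraries, which were all above the untreated ones. The rise was 5.35 ± 0.20 at 1 h (40.7-fold) and 4.36 ± 0.19 at 2 h (20.5-fold). At 5 h Egr1 fell by 1.39 on the log2 scale (SE 0.29), and at 48 h the value was -0.32 ± 0.24, not called. Even at its peak Egr1 in CGR8, 45.6 ± 3.37 CPM (SD, n = 3), stayed below the 117 ± 8.15 CPM of untreated NIH/3T3. Without CGR8 2 h A the rise at 2 h was 4.17, and without CGR8 0 h B the rises at 1 h and 2 h were 5.28 and 4.29. The 5 h value was -1.66 without CGR8 5 h A and -1.44 without 0 h B.

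Egr2, a regulator of myelination and of lymphocyte anergy, was, like Egr1, highest at 2 h in NIH/3T3, with a larger step from 1 h. Its libraries held 14.3, 13.0 and 13.6 CPM at 0 h, 65.1, 86.4 and 54.5 at 1 h, and 155, 131 and 129 at 2 h. They then held 6.76, 5.06 and 6.88 CPM at 5 h and 14.6, 14.1 and 13.9 at 48 h. No 2 h library overlapped a 1 h library, whereas those of Egr1 did overlap. Egr2 rose by 2.33 ± 0.15 (log2 ± SE) at 1 h and by 3.34 ± 0.15 at 2 h, or 10.1-fold, and the step from 1 h to 2 h was 1.01 ± 0.14. It fell by 1.13 at 5 h (SE 0.16), and at 48 h the difference was 0.06 ± 0.15, not called. Without library C at 1 h the first value was 2.46, and without library A at 2 h the second was 3.27.

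In CGR8, Egr2 was nearly silent. The 3 untreated libraries held 0, 0 and 3 counts, the 1 h libraries 8, 7 and 10, the 2 h libraries 5, 5 and 3, the 5 h libraries 0, 0 and 1, and the 48 h libraries 1, 2 and 1. Egr2 did not pass the filter on low counts in CGR8. The summed counts of 25 at 1 h against 3 at 0 h give a ratio of 9.71 after scaling, with an exact 95% counting interval from 2.96 to 50.2. This interval covers counting error only and leaves out the spread between libraries, so it is too narrow. All 3 of the untreated counts came from library C.

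Egr3, which shares the EGR site with its relatives and acts in muscle spindle and lymphocyte development, was slower. In NIH/3T3 its libraries held 7.06, 5.34 and 4.60 CPM at 0 h, 7.67, 13.1 and 5.02 at 1 h, and 32.2, 29.3 and 25.1 at 2 h. By 5 h these held 1.44, 0.596 and 1.49 CPM, and at 48 h 1.35, 0.793 and 1.41. The groups at 0 h and 1 h overlapped, and the 1 h value of 0.62 ± 0.28 was not called, with or without library C (0.87). Egr3 rose by 2.36 ± 0.28 at 2 h (2.30 without library A), then fell by 2.26 (SE 0.36) at 5 h and by 2.25 (SE 0.36) at 48 h. Of the EGR genes in NIH/3T3 it was the one whose 48 h libraries all stayed below the untreated ones. In CGR8, Egr3 had at most 3 counts in any library and 0 in each of the 5 h libraries.

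**Figure D2:**
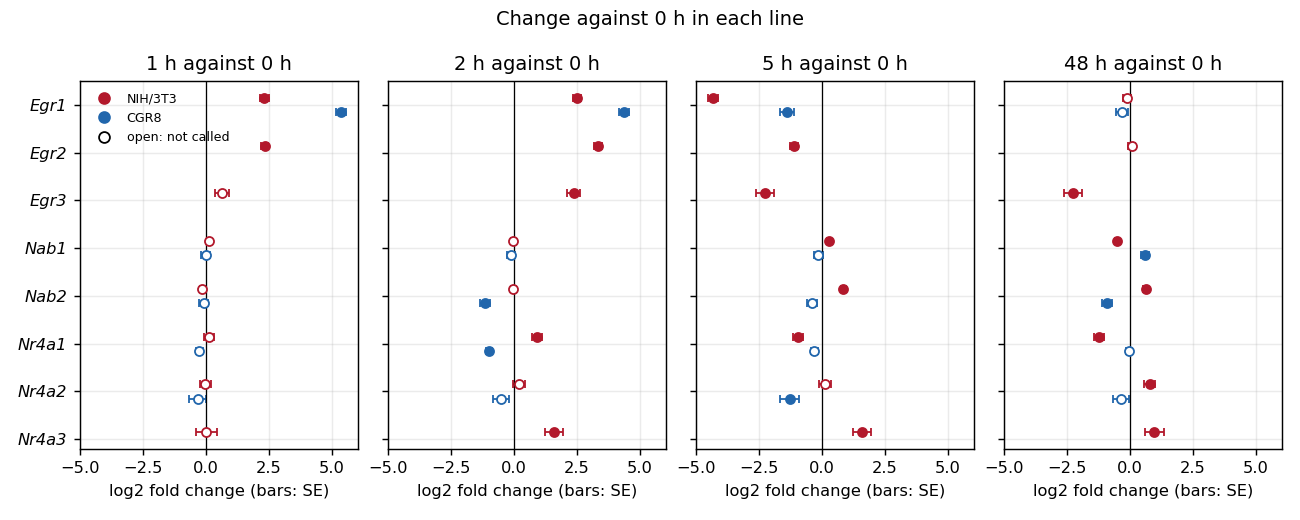
Log2 fold change against 0 h (points) with its standard error (bars) for each gene at 1, 2, 5 and 48 h, in NIH/3T3 and CGR8; open points were not called, and Egr2, Egr3 and Nr4a3 in CGR8 did not pass the filter on low counts. In NIH/3T3 the EGR genes lie to the right at 2 h and to the left at 5 h. Among genes called in both lines at a time, the lines lie on opposite sides of 0 for Nr4a1 at 2 h and for Nab2 and Nab1 at 48 h.

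The NAB corepressors did not share the early peak. Nab2 in NIH/3T3 libraries A, B and C stood at 32.6, 28.1 and 31.9 CPM at 0 h, at 28.9, 30.8 and 23.9 at 1 h and at 31.2, 28.9 and 31.1 at 2 h. It stood at 57.2, 50.7 and 58.0 CPM at 5 h and at 46.2, 46.5 and 49.1 at 48 h. All 5 h and 48 h libraries lay above all earlier ones. Against 0 h the values at 1 h and 2 h, -0.15 ± 0.10 and -0.02 ± 0.10 (log2 ± SE), were not called, and Nab2 rose by 0.84 ± 0.10 at 5 h and by 0.61 ± 0.10 at 48 h. Nab2 was first higher at 5 h, when Egr1, Egr2 and Egr3 were below their untreated level, and no time between 2 h and 5 h was sampled. At 48 h, when Nab2 was also higher, Egr3 alone of the EGR genes was called lower.

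In CGR8, Nab2 moved the other way. Libraries A, B and C held 6.17, 6.30 and 5.28 CPM at 0 h, 5.78, 5.96 and 4.88 at 1 h, and 2.71, 2.37 and 2.91 at 2 h. At 5 h they held 5.20, 3.98 and 4.28 CPM, and at 48 h 4.22, 2.35 and 2.76. The 2 h and 48 h libraries lay below all untreated ones. Nab2 fell by 1.15 (SE 0.20) at 2 h and by 0.93 (SE 0.19) at 48 h, and its 5 h value of -0.40 ± 0.19 was not called, although voom called it at -0.48 and scaling by library size alone at -0.50. Without CGR8 2 h A the 2 h value was -1.17, and without 0 h B it was -1.12. The Nab2 gene overlaps Stat6, Nemp1 and Gm16229 on the opposite strand in GENCODE M21, and whether strand was used in counting was not stated, so reads of these genes may enter its counts.

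Nab1 was not called at 1 h or 2 h in either line. In NIH/3T3 its libraries held 79.9, 89.3 and 72.9 CPM at 0 h, 82.7, 84.2 and 93.8 at 1 h, and 82.5, 78.5 and 74.2 at 2 h. The 1 h and the 2 h libraries overlapped the untreated ones, and all 1 h libraries lay above all 2 h libraries. Its 5 h libraries held 96.5, 99.0 and 96.9 CPM, and at 48 h 58.8, 54.6 and 55.6. Nab1 rose by 0.27 ± 0.09 (log2 ± SE) at 5 h and fell by 0.52 (SE 0.09) at 48 h. The small rise at 5 h was no longer called without NIH/3T3 0 h C, at 0.22, or with no filter on low counts, at 0.27. In CGR8, Nab1 ranged from 3.57 to 4.92 CPM from 0 h to 5 h and held 8.04, 5.52 and 6.59 CPM at 48 h, a rise of 0.60 ± 0.16. That rise was not called without CGR8 48 h A, at 0.45. At 48 h the corepressors thus moved in opposite directions within each line, Nab2 up and Nab1 down in NIH/3T3 and the reverse in CGR8.

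The balance between EGR transcripts and their corepressors swung with the time of treatment. The summed EGR level in NIH/3T3 went from 32.2 ± 2.24 CPM per kb (SD, n = 3) at 0 h to 155 ± 46.9 at 1 h and 202 ± 22.9 at 2 h, then to 3.72 ± 0.619 at 5 h and 29.0 ± 0.655 at 48 h. The summed NAB level stayed between 32.0 and 33.2 CPM per kb at all times but 5 h, when it was 46.6 ± 1.22. The ratio of EGR to NAB was therefore 0.983 ± 0.0874 before treatment, 4.67 ± 1.39 at 1 h and 6.29 ± 0.478 at 2 h. It was 0.0797 ± 0.0114 by 5 h and 0.884 ± 0.0118 by 48 h. The 1 h libraries A, B and C had ratios of 4.76, 6.02 and 3.25, and the 2 h libraries 6.82, 6.16 and 5.90.

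CGR8 began with far less EGR than NAB transcript, where NIH/3T3 began about even. Its ratio of EGR to NAB was 0.080 ± 0.0201 before treatment, 3.15 ± 0.143 at 1 h and 2.54 ± 0.728 at 2 h. It was 0.0354 ± 0.00708 by 5 h and 0.0824 ± 0.0164 by 48 h. Library A was the highest of the 2 h libraries, at 3.32, and of the 5 h libraries, at 0.0434. Both lines thus had more EGR than NAB transcript per kb at 1 h and 2 h in every library, and less at 5 h in every library. These ratios are given with no test.

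**Figure D3:**
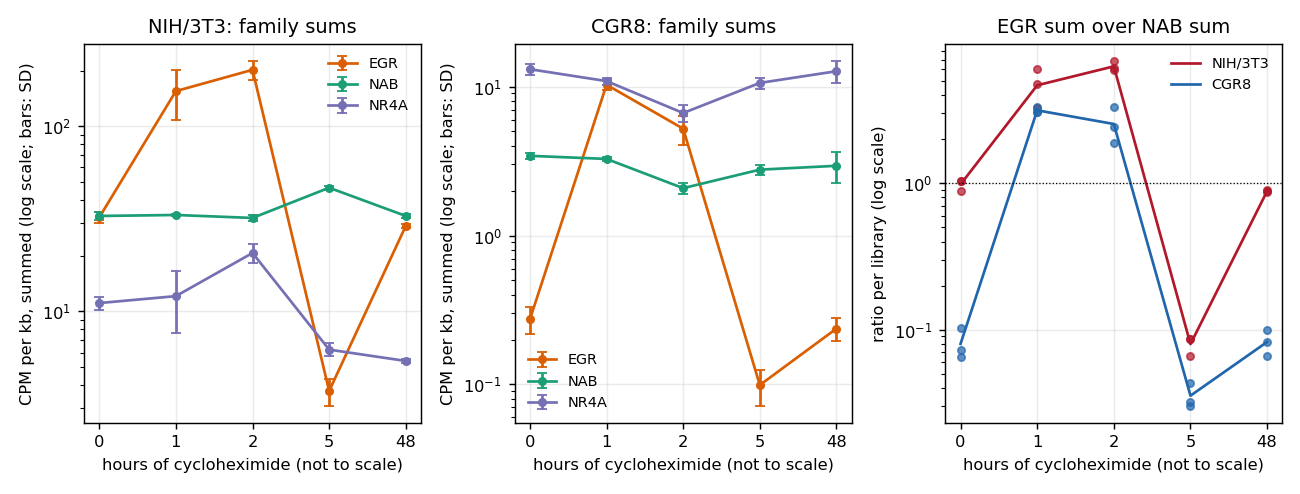
Summed CPM per kb of the EGR, NAB and NR4A genes (mean of 3 libraries, bars SD, log axes that differ between the lines) and, at right, the ratio of the EGR to the NAB sum in each library (points) with the group mean (line), against hours of cycloheximide spaced evenly. The ratio crosses the dotted line at 1 upward by 1 h in CGR8 and rises from about that line in NIH/3T3, and at 5 h no library of either line exceeds 0.0868.

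The makeup of the EGR sum changed with it. Egr1 gave 81.2% ± 0.736 (SD, n = 3) of the EGR sum in untreated NIH/3T3 and 73.2% ± 0.316 at 2 h. At 5 h it gave 35.7% ± 2.16 and Egr2 56.5% ± 0.225, so that Egr2 led. By 48 h Egr1 was back at 82.5% ± 0.2. In CGR8, Egr1 gave 98.7% ± 0.167 of the sum at 1 h.

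Nr4a1 moved in opposite directions in the lines at 2 h. In NIH/3T3 libraries A, B and C held 27.7, 24.6 and 28.8 CPM at 0 h, 34.3, 37.4 and 16.9 at 1 h, and 44.1, 52.4 and 55.6 at 2 h. They held 14.7, 12.8 and 14.1 CPM at 5 h and 11.0, 11.6 and 11.8 at 48 h. All 2 h libraries lay above, and all 5 h and 48 h libraries below, the untreated ones, while at 1 h library C lay below and A and B above them. Nr4a1 rose by 0.91 ± 0.19 (log2 ± SE) at 2 h, then fell by 0.97 (SE 0.20) at 5 h and by 1.24 (SE 0.20) at 48 h. Its 1 h value of 0.13 ± 0.19 was not called, but without NIH/3T3 1 h C it was called at 0.39, and with voom at 0.34. Without NIH/3T3 2 h A the 2 h rise was 1.01.

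In CGR8, Nr4a1 dipped and recovered. Libraries A, B and C held 36.1, 31.9 and 30.9 CPM at 0 h, 28.6, 27.7 and 25.8 at 1 h, and 18.1, 17.6 and 14.3 at 2 h. At 5 h they held 28.6, 24.2 and 27.5 CPM, and at 48 h 38.4, 28.9 and 29.1. The 2 h libraries lay below those of every other time, and the 48 h libraries overlapped the untreated ones. Nr4a1 fell by 0.99 (SE 0.13) at 2 h, and stood at -0.27 ± 0.13 at 1 h, -0.30 ± 0.13 at 5 h and -0.04 ± 0.13 at 48 h, none of which was called. At 5 h it was called at -0.40 by library size alone, at -0.41 with voom and at -0.30 with the replicate letter as a block. At 1 h voom called it at -0.31. Without CGR8 2 h A the 2 h value was -1.05, and without CGR8 5 h A the 5 h value was -0.33, not called.

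Nr4a2, known for its part in dopamine neurons, stayed low in both lines. In NIH/3T3 it ranged from 1.07 to 1.90 CPM from 0 h to 5 h and held 2.82, 2.55 and 2.03 CPM at 48 h, above all untreated libraries, a rise of 0.78 ± 0.21 (log2 ± SE). In CGR8 it held 0.707, 0.565 and 0.67 CPM at 0 h and 0.311, 0.245 and 0.233 at 5 h, from 5 to 7 counts, and fell by 1.29 (SE 0.36). That fall was 1.41 without CGR8 5 h A. Nr4a2 did not show the 2 h peak of Nr4a1 in NIH/3T3, where its value was 0.20 ± 0.23, not called.

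Nr4a3 was low in fibroblasts, with as few as 3 counts in a library at 1 h, and at the limit of detection in stem cells. In NIH/3T3 it held 0.346, 0.854 and 0.723 CPM at 0 h, 1.96, 2.04 and 1.89 at 2 h and 1.98, 1.70 and 2.23 at 5 h. It rose by 1.57 ± 0.35 (log2 ± SE) at 2 h, or 1.59 without library A, and by 1.57 ± 0.35 at 5 h, when Nr4a1 had already fallen. Its 48 h value of 0.96 ± 0.38 was called, but not without NIH/3T3 0 h A (0.71), 0 h C (1.06), 48 h B (0.96) or 48 h C (0.83). In CGR8, Nr4a3 had at most 4 counts in any library and 0 in all libraries at 2 h and 5 h. Nr4a1 therefore gave 83.0% to 99.3% of the NR4A sum per kb at every time in both lines.

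Read as a group in NIH/3T3, 2 of 8 members were called higher and 0 lower at 1 h, where 0.653% and 0.0789% of 13941 genes were. At 2 h these counts were 5 higher and 0 lower, where 16.1% and 18.9% of all genes were called. At 5 h they were 3 higher and 4 lower, beside 24% and 27.1%, and at 48 h 3 higher and 3 lower, beside 26.7% and 25.6%. The members' median log2 change was 0.12, 1.24, -0.42 and -0.03 at these times, and that of all genes tested lay between -0.01 and 0.02. In CGR8, 5 of the 8 members passed the filter. At 1 h 1 was called higher and 0 lower, where 0.144% and 0.126% of 15933 genes were. Without CGR8 0 h C, which lets Egr2 pass the filter, 2 were called at 1 h. At 2 h 1 was higher and 2 lower, beside 8.97% and 11% of all genes. At 5 h 0 were higher and 2 lower, beside 24.9% and 27.2%, and at 48 h 1 was higher and 1 lower, beside 12.2% and 15.6%. Without CGR8 48 h A 1 was called at 48 h. Since the choice of members used these contrasts, nothing is read from the counts, and the comparisons of a line share its 0 h libraries.

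The changes of 5 members were also set side by side between the lines. In the fit of all 30 libraries, with values given as the CGR8 change minus the NIH/3T3 change, Egr1 differed by 3.06 ± 0.27 (log2 ± SE) at 1 h, 1.92 ± 0.28 at 2 h and 3.01 ± 0.47 at 5 h, the last being 2.54 without CGR8 5 h A. Nab2 differed by -1.07 ± 0.21 at 2 h, -1.15 ± 0.21 at 5 h (-1.46 without CGR8 5 h A) and -1.56 ± 0.21 at 48 h. Nr4a1 differed by -1.84 ± 0.25 at 2 h and by 1.19 ± 0.25 at 48 h. Nab1 differed by 1.10 ± 0.17 at 48 h. In these contrasts 1 member was called higher and 0 lower at 1 h, beside 0.0171% and 0.142% of 17549 genes. At 2 h 1 was higher and 2 lower, beside 0.866% and 1.16%. At 5 h and again at 48 h 2 were higher and 2 lower, beside 8.18% and 5.09% at 5 h and 9.78% and 12.1% at 48 h. Since the members were chosen with the values of both lines known, nothing is read from these calls. The total of 4 at 5 h was 2 without CGR8 0 h A, 0 h C or 5 h C or NIH/3T3 0 h A, 5 h A or 5 h C.

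Other called differences between the lines were lost under several alternatives, and those of Nr4a2 also rested on few counts. The 5 h difference of Nr4a1, 0.75 ± 0.25, was not called with RLE factors, by library size alone, by DESeq2, with a mean of at least 5 CPM, or without any one of the libraries of these groups except NIH/3T3 0 h B, with values from 0.52 to 0.82. The Nr4a2 differences, -1.33 ± 0.42 at 5 h and -1.14 ± 0.37 at 48 h, were not called with no filter on low counts, at -1.37 and -1.12. The Nr4a2 difference at 5 h was also lost without CGR8 0 h A or C, CGR8 5 h C, NIH/3T3 0 h A or B, or NIH/3T3 5 h A or C, with values from -1.34 to -1.15. That of Nr4a2 at 48 h was lost without CGR8 0 h A or C, CGR8 48 h A or B, NIH/3T3 0 h B, or NIH/3T3 48 h A or B, with values from -1.13 to -0.95.

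The AP-1 genes, immediate-early genes of the FOS, JUN and ATF families, give a comparison among genes that are no members. This list and those below were also chosen with earlier results of these data known. Most genes named from them are the largest rise or fall among those called, so their adjusted p-values are a description. In NIH/3T3 5 of 8 were called higher at 1 h and 7 of 8 at 2 h, with medians of 1.27 and 2.53 and 0 lower. Fos rose by 3.67 ± 0.23 (SE, adjusted p = 1.68e-07 by edgeR) at 1 h and by 3.91 ± 0.23 (adjusted p = 4.07e-09) at 2 h. At 5 h 1 was higher and 4 lower, with a median of -0.46: Atf3 rose by 1.32 ± 0.22 (adjusted p = 0.000123) and Fosl1 fell by 1.59 (SE 0.12, adjusted p = 9.96e-08). At 48 h 1 was again higher and 4 lower, where Fos rose by 1.76 ± 0.26 (adjusted p = 4.12e-05) while Egr1 was not called. Over all genes in NIH/3T3, 0.653% were called higher and 0.0789% lower at 1 h, and 16.1% and 18.9% at 2 h. The shares were 24% and 27.1% at 5 h and 26.7% and 25.6% at 48 h.

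In CGR8 3 of the 7 tested AP-1 genes, Fos, Jun and Junb, were called higher at 1 h and 0 lower, with a list median of 0.50. Fos rose by 2.35 ± 0.25 (SE, adjusted p = 0.000405 by edgeR), less than the 5.35 of Egr1 in the same libraries. At 2 h 2 were higher and 0 lower, Jun at 0.99 ± 0.22 (adjusted p = 0.00669) and Fos at 0.98 ± 0.26 (adjusted p = 0.0183), with a median of -0.29. That count was 1 without CGR8 0 h C or 2 h C and 4 without 2 h A. At 5 h 1 was higher and 3 lower, with Junb at 0.80 ± 0.13 (adjusted p = 0.000104) and Fosl2 at -2.13 ± 0.62 (adjusted p = 0.00923). At 48 h 1 was higher and 1 lower, Jun at 1.08 ± 0.22 (adjusted p = 0.00157) and Atf3 at -1.27 ± 0.25 (adjusted p = 0.00141). Over all genes in CGR8, 0.144% were called higher and 0.126% lower at 1 h, and 8.97% and 11% at 2 h. The shares were 24.9% and 27.2% at 5 h and 12.2% and 15.6% at 48 h.

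Genes upstream of the family include the SRF cofactors, the ternary complex factors ELK1, ELK3 and ELK4, CREB and its coactivators, MEF2 factors and the kinases of the ERK cascade, of which 21 of 23 were tested in each line. At 1 h 0 were called in either line by edgeR, with 4 in NIH/3T3 and 0 in CGR8 at an unadjusted p under 0.05. DESeq2 called 0 in both lines, and voom called 7 in NIH/3T3 and 0 in CGR8. In NIH/3T3 edgeR called 1 without 0 h B and 2 without 1 h C. In NIH/3T3 2 were higher and 6 lower at 2 h, with Rps6ka5 at 0.36 ± 0.11 (SE, adjusted p = 0.0228) and Mrtfa, an SRF coactivator, at -0.81 ± 0.14 (adjusted p = 0.000524). That count of 8 was 3 without NIH/3T3 0 h A or 2 h C and 4 without 0 h C or 2 h B. At 5 h 3 were higher and 10 lower, with Mef2a at 0.54 ± 0.11 (adjusted p = 0.000922) and Elk1 at -0.92 ± 0.13 (adjusted p = 3.85e-05). At 48 h 8 were higher and 2 lower, with the kinase gene Rps6ka3 at 0.83 ± 0.14 (adjusted p = 0.000102) and Map2k1 at -0.50 ± 0.07 (adjusted p = 2.83e-05). Of all genes in NIH/3T3, 16.1% were called higher and 18.9% lower at 2 h. The shares were 24% and 27.1% at 5 h and 26.7% and 25.6% at 48 h.

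Of the upstream genes in CGR8, more were called lower than higher at 2, 5 and 48 h. At 2 h 0 of 21 were higher and 7 lower, beside 8.97% and 11% of all genes, led by Elk4 at -1.11 ± 0.24 (SE, adjusted p = 0.00649 by edgeR), a count that was 4 without CGR8 2 h C and 11 without 2 h A. At 5 h 1 was higher and 14 lower, beside 24.9% and 27.2% of all genes, with a median of -0.59. Crem, a CREB relative, rose by 0.67 ± 0.14 (adjusted p = 0.000895) and Crtc3, a CREB coactivator, fell by 1.74 (SE 0.47, adjusted p = 0.00523). At 48 h 1 was higher and 4 lower, beside 12.2% and 15.6%, with Elk1 lowest among those called, at -0.50 ± 0.12 (adjusted p = 0.00558). That count of 5 was 3 without CGR8 0 h A, 0 h B or 48 h A and 2 without 48 h C.

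Relatives and partners of the family numbered 7, namely Egr4, Wt1, the RXR receptors that pair with NR4A proteins, and Chd3 and Chd4, chromatin remodellers of which CHD4 is known to bind NAB2. At 1 h 0 were called by edgeR in either line, with 2 in NIH/3T3 and 0 in CGR8 at an unadjusted p under 0.05, 0 by DESeq2 in both, and 1 and 0 by voom. In NIH/3T3, where 4 were tested, 3 were lower at 2 h, led by Chd3 at -0.79 ± 0.14 (SE, adjusted p = 0.000525), and 3 at 5 h, led by Rxra at -0.92 ± 0.12 (adjusted p = 1.66e-05). At 48 h 2 were higher, led by Chd3 at 0.61 ± 0.13 (adjusted p = 0.00118). In CGR8, where 6 were tested, 3 were lower at 2 h, led by Chd3 at -0.68 ± 0.17 (adjusted p = 0.0118), a count that was 1 without CGR8 0 h A or 0 h C and 0 without 2 h C. At 5 h 4 were lower, led by Wt1 at -1.66 ± 0.43 (adjusted p = 0.00422). At 48 h Rxrg was higher at 1.51 ± 0.50 (adjusted p = 0.0329) and Rxra lower at -0.73 ± 0.16 (adjusted p = 0.00258), and 1 of these was called without CGR8 48 h B. Of all genes in NIH/3T3, 18.9% were called lower at 2 h, 27.1% lower at 5 h and 26.7% higher at 48 h. In CGR8 11% were called lower at 2 h and 27.2% at 5 h, and at 48 h 12.2% higher and 15.6% lower.

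Described targets of EGR1 or NR4A1 numbered 19, of which 14 were tested in NIH/3T3 and 15 in CGR8. At 1 h 0 were called by edgeR in either line, with 3 in each at an unadjusted p under 0.05, 0 in NIH/3T3 and 1 in CGR8 by DESeq2, and 5 and 3 by voom. In NIH/3T3, without 1 h C, the count was 1. At 2 h 5 were higher and 3 lower in NIH/3T3, beside 16.1% and 18.9% of all genes, a total that was 5 without 0 h A. Mmp14, a membrane protease, fell by 0.59 (SE 0.10, adjusted p = 0.000708).

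At 5 h 7 targets were higher and 2 lower in NIH/3T3, beside 24% and 27.1% of all genes, when Star fell by 1.02 (SE 0.22, adjusted p = 0.000936 by edgeR). At 48 h 6 were higher and 5 lower, beside 26.7% and 25.6% of all genes, with Mmp14 at 1.14 ± 0.10 (SE, adjusted p = 2.88e-07). In CGR8 2 were higher and 6 lower at 2 h, with Ptges at 1.00 ± 0.16 (adjusted p = 0.000773) and F3, tissue factor, at -1.11 ± 0.25 (adjusted p = 0.00705). That count of 8 was 5 without CGR8 0 h A or 0 h C and 4 without 2 h C. At 5 h 3 were higher and 8 lower, with Icam1 at 0.99 ± 0.09 (adjusted p = 1.04e-06) and Pdgfb at -1.64 ± 0.33 (adjusted p = 0.000651). At 48 h 3 were higher and 4 lower, with Star at 1.44 ± 0.17 (adjusted p = 1.63e-05) and Ptges at -2.07 ± 0.19 (adjusted p = 1.74e-06). The list medians in CGR8 were -0.26, -0.42 and -0.14 at 2, 5 and 48 h. Of all genes in CGR8, 8.97% were called higher and 11% lower at 2 h. The shares were 24.9% and 27.2% at 5 h and 12.2% and 15.6% at 48 h.

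**Figure D4:**
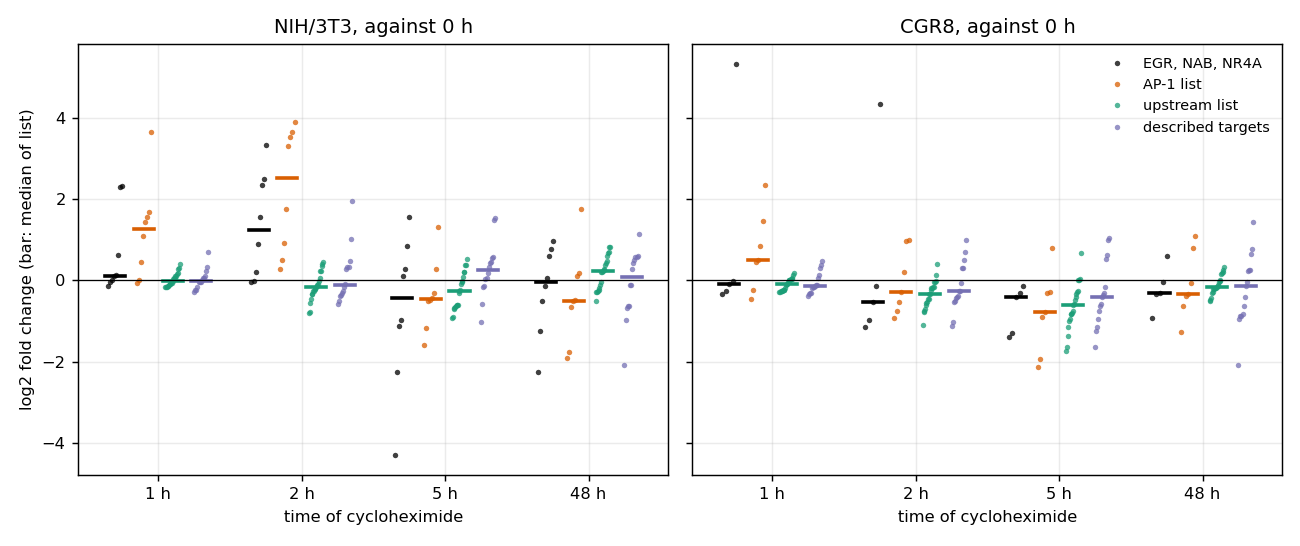
Log2 fold change against 0 h of every tested gene (points) and the median (bar) of the EGR, NAB and NR4A genes, the AP-1 list, the upstream list and the described targets, at each time in each line. The AP-1 medians of 1.27 and 2.53 at 1 h and 2 h in NIH/3T3 lie above those of the other lists, and in CGR8 at 1 h Egr1, at 5.35, lies above all other points.

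Genes whose changes at the 4 times were closest to a member's, by root-mean-square difference of log2 fold changes, were listed with their distance. Among 8900 candidates in NIH/3T3, those closest to Egr1 were Zfp36 (1.66), Junb (1.69) and Ier2 (1.89), so no candidate came near its course. Closest to Egr2 were Junb (0.57), Csrnp1 (0.77) and Btg2 (0.80). Closest to Nr4a1 were Clcf1 (0.18), Dusp4 (0.21) and Mafk (0.22), and closest to Nab2 were Zfp113 (0.09), Ccdc112 (0.12) and Stxbp3 (0.13).

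Among 8624 candidates in CGR8, the genes closest to Egr1 were Txnip (2.63), Ccn2 (2.83) and Arrdc3 (2.85), still farther off than in NIH/3T3. Txnip was still up by 1.745 at 5 h, when Egr1 had fallen. Fos, with changes of 2.35, 0.98, -0.31 and -0.64 at the 4 times, did not reach the level asked of candidates in CGR8. Closest to Nr4a1 were Ing1 (0.12), Mob3c (0.13) and Pwwp2b (0.13). Closest to Nab2 were Rhou (0.15), Six4 (0.22) and Irf9 (0.25). The distances are over 4 comparisons that share their 0 h libraries and are given as a description.

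The members' transcripts differ in build. In GENCODE M21 the reference transcripts of Egr1, Egr2 and Egr3 have 2 exons each, and those of the NAB and NR4A genes 7 or 8, where the median gene has 7. AUUUA pentamers, a feature of many short-lived transcripts, were counted in the 3′ UTR. Nr4a1 had 5.52 per kb, a density that 5.95% of 20981 genes reach, and Nab2 had 3.99 per kb, reached by 12.7%. Egr1 had 1.64 per kb, reached by 42.0% of genes. Any link between pentamers and the changes in level was not tested. Nab2 alone of the members held the longer AU-rich nonamer built on this pentamer, which 7.57% of genes hold. The median over genes was 1.22 pentamers per kb.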

How the data were processed

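RNA from 30 libraries (2 lines, 5 times, 3 replicates) was sequenced from a stranded mRNA ligation kit, per the labels. Values are raw counts of reads for each gene, as the authors deposited them. STAR, DESeq2 and GRCm39 are named in the submitters' processing notes, without version or role. The use of strand and the annotation release were not given in the sources used here. Symbols came from GENCODE M21 for 51880 identifiers (90.7%), with version suffixes removed.

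For each line, edgeR 4.0.16 in R 4.3.3 was fitted to its 15 libraries, with TMM factors, filterByExpr (minimum count 10, minimum total 15) and the quasi-likelihood F test against 0 h. P-values were adjusted by Benjamini-Hochberg over all genes tested and called under 0.05. Contrasts between lines used 1 fit of all 30. Each SE is the size of the log2 fold change divided by the square root of F. CPM uses the library total times the TMM factor, and CPM per kb divides by the length of the reference transcript. The test was checked on simulated counts.

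The members and all gene lists were chosen with earlier results of these data known. All 8 members are named. From each list the called gene with the largest rise and the one with the largest fall is named per line and time, and for Egr1, Egr2, Nr4a1 and Nab2 the 3 genes of nearest course with at least 10 CPM in some group, leaving out predicted genes and pseudogenes. A few genes that this rule picks are not reported here. Alternatives were RLE factors, library size alone, DESeq2 1.42.0, voom (limma 3.58.1) with sample quality weights, no filter, a mean of at least 5 CPM, only the groups compared, a block for the replicate letter, and leaving out each library in turn. The labels do not say whether replicates came from separate cultures, so p-values measure the spread between these samples, which may be technical. Counts of every pair of replicates differed by more than sampling noise (chi-square over its degrees of freedom at least 1.75). Promoter letters and reference transcripts are from RefSeq and GENCODE on GRCm38, a build other than that of the notes, and were used by gene, with no coordinate carried over.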

Additional observations from a re-analysis of the deposited data

Results flagged for a closer look

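The interaction term of edgeR's fit of all 30 libraries called a difference between the lines in the response to cycloheximide for 5 of the 8 members at 1 or more times. Of all 17549 genes, 0.0171% were called higher and 0.142% lower at 1 h, 0.866% and 1.16% at 2 h, 8.18% and 5.09% at 5 h and 9.78% and 12.1% at 48 h. The members were chosen with these values known, so the calls are a description. Values are the log2 change in CGR8 minus that in NIH/3T3. For Egr1 they were 3.06 at 1 h, 1.92 at 2 h and 3.01 at 5 h. For Nab2 they were -1.07 at 2 h, -1.15 at 5 h and -1.56 at 48 h. For Nr4a1 they were -1.84 at 2 h, 0.75 at 5 h and 1.19 at 48 h. For Nr4a2 they were -1.33 at 5 h and -1.14 at 48 h, and for Nab1 the value was 1.10 at 48 h. The 5 h value of Nr4a1 and both values of Nr4a2 were not called under several alternatives. Egr1 began 108-fold lower in CGR8, so its fold change there starts from 25 to 35 counts per library, and the part this plays in the difference was not tested. The lines also grew in different media, and effects of line and medium cannot be told apart.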

How the results depend on the processing

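Of 1942 alternative values of members' changes, 1924 moved by less than the largest SD between replicates among the groups compared. A further 18 moved by more, and 0 of the called ones reversed. Leaving out 1 of 3 libraries can hardly move a value by that SD. The values with a library left out were thus almost bound to fall below it, and nothing is read from their number. Of the 202 counts of members called, 17 differed from the reported count by over 1.5 times. With voom 2 members were called in CGR8 at 1 h, 4 in CGR8 at 5 h and 2 in the 1 h difference between lines. With no filter 2 were called in CGR8 at 1 h, and by library size alone 4 in CGR8 at 5 h. With a mean of at least 5 CPM, which leaves fewer members to test, 1 was called in CGR8 at 5 h, 0 at 48 h, 2 in the 5 h difference and 4 between the untreated lines. With each library left out, the count ranged from 1 to 2 in CGR8 at 1 h, 1 to 2 at 48 h and 2 to 3 in the 5 h difference. Of the 448 list counts, 50 differed by over 1.5 times. For upstream genes voom called 7 at 1 h, 17 at 2 h and 19 at 48 h in NIH/3T3 and 11 at 2 h in CGR8, no filter 5 (NIH/3T3, 2 h) and 3 (CGR8, 48 h), and the compared groups alone 4 and 17 (NIH/3T3, 2 h and 48 h) and 4 (CGR8, 2 h). For partners voom called 1 (NIH/3T3, 1 h), the compared groups alone 0 and 1 (CGR8, 2 h and 48 h) and 5 CPM 1 (CGR8, 48 h). For targets voom called 5 (NIH/3T3, 1 h) and 3 (CGR8, 1 h), DESeq2 1 (CGR8, 1 h), no filter 1 (NIH/3T3, 1 h) and the compared groups alone 3 (CGR8, 2 h). For AP-1 voom called 4 and the compared groups alone 1 (CGR8, 2 h), and 5 CPM called 3 at 1 h and 3 at 48 h in NIH/3T3 and 1, 0, 2 and 0 at 1, 2, 5 and 48 h in CGR8. With each library left out, upstream counts ranged from 0 to 2 and 3 to 12 (NIH/3T3, 1 h and 2 h), 4 to 11 and 2 to 5 (CGR8, 2 h and 48 h), partners from 0 to 3 and 1 to 3 (CGR8, 2 h and 48 h), targets from 0 to 1 and 5 to 7 (NIH/3T3, 1 h and 2 h) and 4 to 7 (CGR8, 2 h), and AP-1 from 1 to 4 (CGR8, 2 h). The cause of these shifts was not tested.

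Library size alone moved the median of all genes by -0.10 in CGR8 at 5 h and by -0.19 in the 5 h difference. The replicate letters are shared by the groups. Deviations of same-lettered libraries correlated from -0.545 to 0.391, and 13 of 24 treated libraries correlated best with the 0 h library of their own letter. These values do not settle whether the letters mark a pairing, and the main fits did not use the letter. With the replicate block, 3 members were called in CGR8 at 5 h where 2 were reported. Low counts limit Egr2, Egr3 and Nr4a3 in CGR8, which did not pass the filter there.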

Other observations

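Egr4, the remaining EGR gene, was in the list of relatives and was looked at after its values were seen. It had 0 counts in each of the 15 NIH/3T3 libraries and from 0 to 12 counts in the CGR8 libraries, with 4 to 12 at 2 h, 1 to 3 at 5 h and 0 to 1 at 48 h. It is the one EGR gene that was detected in the stem cells and in none of the fibroblast libraries.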
